A study of Mus musculus with 8 samples.

Results

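The 10 genes described here, Ercc5, Ercc1, Ercc2, Ercc3, Ercc4, Ercc6, Xpa, Xpc, Ddb1 and Ddb2, encode core proteins of nucleotide excision repair. They are 10 of the 21444 genes with counts in the series. They were taken as a named list, and Ercc5 was put at its head because of its values in these libraries, so the contrast of Prmt5 KO with Control is given for all 10 as a description and not as a test of them. RNA was measured in 8 libraries of primordial germ cells, which later form the gametes, at embryonic day 11.5. The 4 Prmt5 KO libraries came from embryos of the genotype Blimp1Cre;Prmt5flox/flox, in which Cre recombinase under Blimp1 acts on both copies of Prmt5. The 4 Control libraries came from Blimp1Cre;Prmt5flox/+ embryos, which carry the same Cre and keep 1 copy without lox sites. All embryos were on a mixed background of C57BL/6 and 129 and carried the dPE_Oct4 GFP reporter by which the cells were sorted, and 50 pg of total RNA went into each library. Whether the libraries of a group stem from separate embryos is not stated, so the errors and p-values measure the spread between libraries, which may be partly technical.

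Nucleotide excision repair removes bulky lesions that bend the DNA helix, such as the dimers made by ultraviolet light. Lesions are found either by XPC and the DDB1-DDB2 complex anywhere in the genome or, on transcribed strands, by an RNA polymerase that stalls and recruits ERCC6. Both branches load the transcription factor TFIIH, whose helicase subunits ERCC2 and ERCC3 open the helix, and the scaffold protein XPA. ERCC5 then cuts the damaged strand on the 3′ side of the lesion and the ERCC4-ERCC1 nuclease cuts it on the 5′ side, after which the gap is filled and sealed.

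The promoter of Ercc5, the gene that stands at the head of the list, is shown because the germ cells of this stage pass through global DNA demethylation, which acts on cytosines followed by guanine. The 250 bases before the RefSeq start of the gene (GRCm38.p6, chr1:44147494-44147743, plus strand) are printed 5′ to 3′ with each CG in capitals.
Ercc5 promoter: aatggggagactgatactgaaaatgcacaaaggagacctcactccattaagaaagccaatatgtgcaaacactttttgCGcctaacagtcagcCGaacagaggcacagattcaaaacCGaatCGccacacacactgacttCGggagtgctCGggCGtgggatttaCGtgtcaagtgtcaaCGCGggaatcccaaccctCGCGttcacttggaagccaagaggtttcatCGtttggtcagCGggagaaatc
The stretch holds 14 CG. Over the full RefSeq window, which adds the 50 bases after the start, Ercc5 had 21 CG, more than 75.2% of 32851 windows of that length, whose median was 7. The windows of 7 of the 10 genes were available, and those of Xpc, Ddb2 and Ercc3 were not. The 7 held from 12 CG in Xpa to 27 CG in Ercc2, so Ercc5 lay inside the range of the other 6. The half-site to which p53 binds, searched by its consensus, which reads the same on both strands, was in 0 of these 7 windows and in 8.36% of all windows. DNA methylation was not measured in these libraries.

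The libraries were checked before the genes were read. The total of the gene counts ran from 1811428 to 6549504, with Control 2 and Control 3 the shallowest, and 14400 to 17425 genes had at least 1 count. Prmt5, the targeted gene, was at 39.9, 40.5, 35.3 and 26.4 CPM (read counts relative to the TMM-scaled library size) in Prmt5 KO 1 to 4, against 89.4, 171, 172 and 118 CPM in Control 1 to 4, and fell (log2 fold change -1.95 ± 0.27, SE; adjusted p = 0.0389 in edgeR's quasi-likelihood test). Prmt5 passed the test again without Control 1, but without any of the other 7 libraries its edgeR adjusted p was between 0.0578 and 0.234. With all libraries its edgeR adjusted p was 0.0631 with transcripts summed and 0.13 with the replicate number as a block. It was 0.0023 in edgeR with no filter on low counts, and DESeq2 gave Prmt5 an adjusted p of 9.68e-09. The 16 germ cell markers were all detected in every library, and their summed level was 4400 to 5463 CPM in Prmt5 KO and 4327 to 4906 CPM in Control, with Kit, the receptor of stem cell factor, the most abundant. A multidimensional scaling plot set 2 libraries apart, Prmt5 KO 4 along its leading axis and Prmt5 KO 1 along the next. The 12 markers of somatic gonad and mesonephros summed to 651 CPM in Prmt5 KO 1, with Acta2 at 208 CPM, against 170 to 213 CPM in the other Prmt5 KO libraries and 134 to 214 CPM in Control. Over all libraries Mfge8 was the most abundant of them, at 152 to 177 CPM in Prmt5 KO and 114 to 180 CPM in Control. The 6 endothelial markers summed to 296 to 395 CPM in Prmt5 KO and 279 to 360 CPM in Control, with Pecam1, which germ cells also express, the most abundant at 215 to 322 CPM in Prmt5 KO and 241 to 345 CPM in Control. Kdr was at 0 in 7 libraries and Tie1 in 6. Cdh5 was at 0.25 to 1.52 CPM in Prmt5 KO and 0.89 to 5.80 CPM in Control. Egfl7 was at 1.74 to 7.09 CPM in Prmt5 KO and 5.49 to 18.8 CPM in Control. Tek, a receptor of the same list named here after its values were seen, was at 72.4, 12.2, 53.7 and 71.0 CPM in Prmt5 KO 1 to 4 and at 28.9, 4.46, 7.68 and 8.09 CPM in Control 1 to 4. All but Prmt5 KO 2 were above every Control library (log2 fold change 2.05 ± 0.63, SE; edgeR adjusted p = 0.409). Of 7 markers of blood and macrophages, the 3 globin genes were at 0 in all libraries, and the sum, with Csf1r the most abundant, reached 44.0 CPM in Prmt5 KO and 42.9 CPM in Control.

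Ercc5 was at a higher level in every Prmt5 KO library than in any Control library, but did not pass the adjusted threshold (edgeR adjusted p = 0.202). Ercc5 (ENSMUSG00000026048, GRCm38 chromosome 1, 44147744 to 44181260, plus strand), which encodes the nuclease XPG, was at 77.5, 97.9, 93.3 and 142 CPM in Prmt5 KO 1 to 4, from 459, 505, 627 and 568 counts. In Control 1 to 4 it was at 7.10, 42.4, 20.3 and 28.7 CPM, from 42, 95, 37 and 163 counts. The groups did not overlap, and the nearest libraries were Prmt5 KO 1 and Control 2. The group means were 103 ± 27.4 CPM in Prmt5 KO and 24.6 ± 14.8 CPM in Control (SD, n = 4 each). The log2 fold change was 2.07 with a standard error of 0.44, which is 4.21-fold, and 99.2% of the 10990 genes tested had a lower log2 fold change. The coefficient of variation was 26.7% in Prmt5 KO and 60.2% in Control, and Control 1, the lowest library, is among the deeper ones. Each library pools the RNA of sorted cells, so a change in the share of cells that express a gene and a change in its RNA per cell cannot be told apart.

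The Ercc5 value was also taken without libraries that stand apart or are shallow. Prmt5 KO 1 was the lowest and Prmt5 KO 4 the highest of the Prmt5 KO libraries for Ercc5, and without both the log2 fold change was 1.98. Without the shallow Control 2 and 3 it was 2.53. On leaving out each library in turn it was between 1.75, without Control 1, and 2.47, without Control 2. As the groups did not overlap, these fits could hardly have turned the sign of Ercc5. The markers of somatic gonad were highest in Prmt5 KO 1. Of the endothelial markers, Tek was above every Control library in 3 of the 4 Prmt5 KO libraries. Pecam1, Cdh5 and Egfl7 did not exceed their highest Control value in any Prmt5 KO library, and Kdr and Tie1 were near the floor. The part of other cell types in the Ercc5 difference was not tested.

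**Figure D1:**
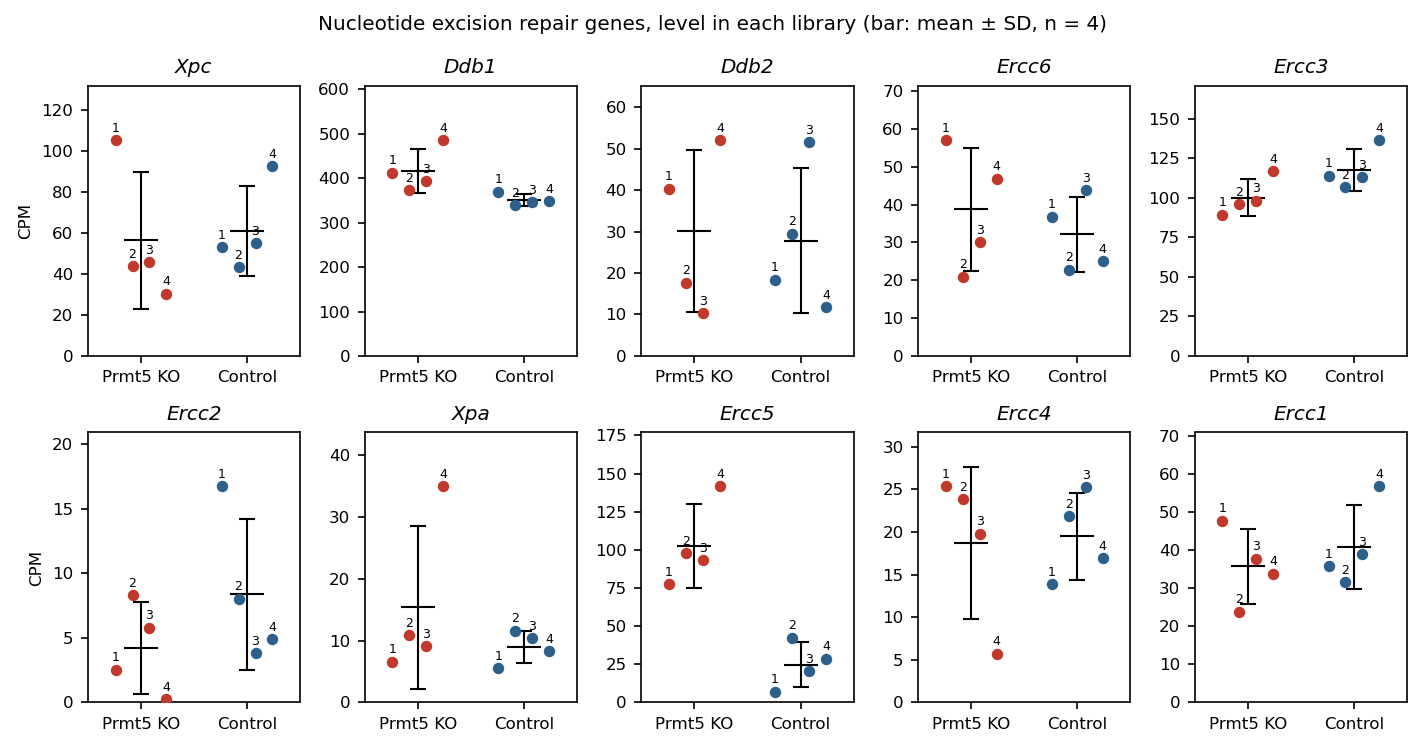
Level in CPM (vertical axes, each from 0) of the 10 genes in the 4 Prmt5 KO libraries (red, left) and the 4 Control libraries (blue, right); numbers beside points are replicate numbers, and bars show the mean ± SD. For Ercc5 the Prmt5 KO libraries lie from 77.5 to 142 CPM, above all Control libraries at 7.10 to 42.4 CPM, and Ddb1 is the other gene whose groups do not overlap.

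The shares of the Ercc5 transcripts overlapped between the groups. The full coding transcript Ercc5-201 (15 exons, 3907 bases) and Ercc5-202, annotated with a retained intron, had identical counts in all 8 libraries. Ercc5-206, which runs from the 4th to the 8th exon of the gene, had 5.7% to 18.5% of the counts of Ercc5-201 in Prmt5 KO libraries and 7.1% to 18.9% in Control libraries. Ercc5-203, from the 2nd to the 8th exon, had 2.2% to 12.4% in Prmt5 KO and 1.2% to 15.8% in Control. Ercc5-206 itself was at 14.4, 5.62, 7.74 and 10.47 CPM in Prmt5 KO 1 to 4 and at 0.51, 8.04, 1.65 and 3.17 CPM in Control 1 to 4, and here Control 2 lay above 2 of the Prmt5 KO libraries. Its ratio of group means was 2.86, against 4.17 for Ercc5-201. These transcripts share reads, so they are not separate measurements of the gene.

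**Figure D2:**
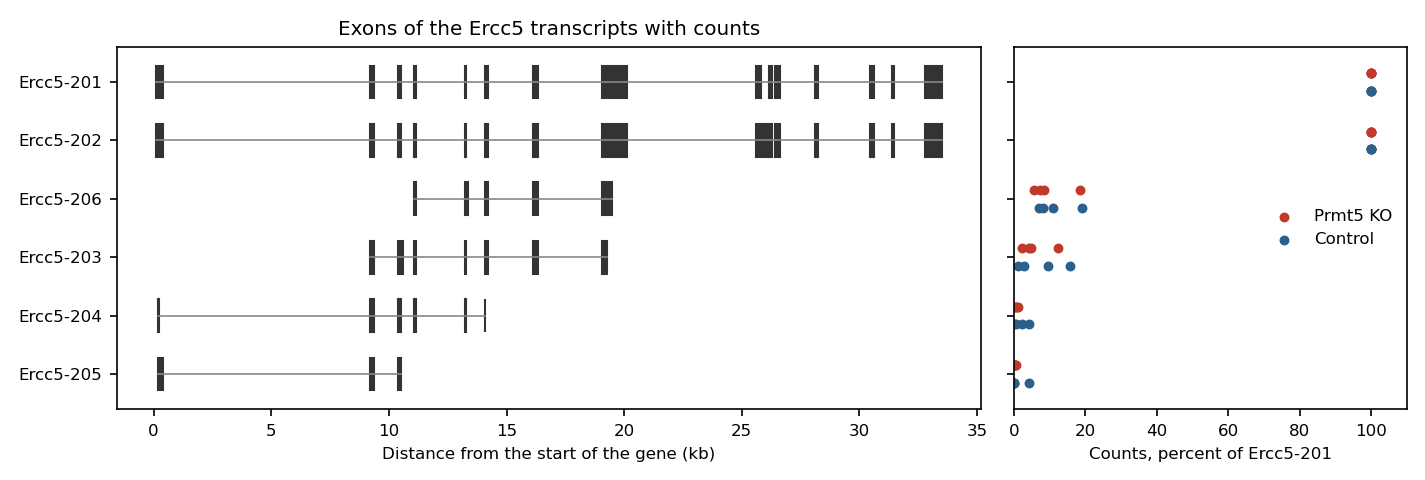
Left, exons (blocks) of the 6 Ercc5 transcripts with counts, drawn by distance in kb from the start of the gene; right, counts of each transcript as a percent of those of Ercc5-201 in each Prmt5 KO (red) and Control (blue) library. Transcripts that end in the 8th exon or before it hold at most 18.9% of the counts of Ercc5-201 in any library.

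The 4 genes of damage recognition had log2 fold changes between -0.12 and 0.27, and Ddb1 varied the least of them between libraries. Ddb1 (ENSMUSG00000024740, chromosome 19, 10605327 to 10629819, plus strand), which encodes the adaptor that joins the lesion binder DDB2 to its ubiquitin ligase, was at 412, 373, 393 and 486 CPM in Prmt5 KO 1 to 4 and at 370, 339, 347 and 348 CPM in Control 1 to 4. The groups did not overlap, but Prmt5 KO 2 exceeded Control 1 by a few CPM, and the log2 fold change was 0.24 with a standard error of 0.13. Ddb2 (ENSMUSG00000002109, chromosome 2, 91211572 to 91236982, minus strand) encodes the DNA-binding subunit and was at 40.4, 17.6, 10.3 and 52.1 CPM in Prmt5 KO 1 to 4 and at 18.4, 29.5, 51.6 and 11.8 CPM in Control 1 to 4. Its libraries spread about as widely within each group as over both, and the log2 fold change was 0.13 with a standard error of 0.56. Without Prmt5 KO 1 and 4, which held its highest Prmt5 KO values, the log2 fold change of Ddb2 was -0.97, and without Control 2 and 3 it was 1.00. Xpc (ENSMUSG00000030094, chromosome 6, 91489305 to 91515888, minus strand) encodes the lesion sensor of the global branch and was at 105.4, 43.8, 45.8 and 30.4 CPM in Prmt5 KO 1 to 4 and at 53.1, 43.3, 54.9 and 92.7 CPM in Control 1 to 4. The highest Xpc value, in Prmt5 KO 1, and the lowest, in Prmt5 KO 4, were both in libraries of the Prmt5 KO group that stand apart. Its log2 fold change was -0.12 (standard error 0.39), and -0.45 without those libraries. Human DDB2 and XPC are known targets of p53, but the promoters of mouse Ddb2 and Xpc were not among those searched for the p53 half-site. Ercc6 (ENSMUSG00000054051, chromosome 14, 32513521 to 32580990, plus strand), which encodes the remodelling factor CSB of the transcription-coupled branch, was at 20.9 to 57.1 CPM in Prmt5 KO and 22.8 to 43.9 CPM in Control, with a log2 fold change of 0.27 (standard error 0.39). The sign of the Ercc6 value turned without Prmt5 KO 1 and 4, to -0.32.

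Of the helicase genes of TFIIH, Ercc3 was at 36.0 CPM per kb of transcript in Prmt5 KO and 42.3 CPM per kb in Control, and Ercc2 was at 1.18 CPM per kb in Prmt5 KO and 2.34 CPM per kb in Control. Ercc3 (ENSMUSG00000024382, chromosome 18, 32240300 to 32270151, plus strand), the XPB subunit, was at 89.3, 96.1, 98.2 and 117 CPM in Prmt5 KO 1 to 4 and at 114, 107, 113 and 137 CPM in Control 1 to 4. All but Prmt5 KO 4 were below every Control library, and the log2 fold change was -0.23 with a standard error of 0.19. Ercc2 (ENSMUSG00000030400, chromosome 7, 19382010 to 19395694, plus strand), the XPD subunit, was the scarcest of the 10, at 2.53, 8.33, 5.80 and 0.25 CPM in Prmt5 KO 1 to 4 and 16.7, 8.04, 3.84 and 4.93 CPM in Control 1 to 4. Prmt5 KO 4 had 1 count of Ercc2 and Control 1 had 99, and the groups overlapped. The log2 fold change of Ercc2 was -0.99 with a standard error of 0.85; without Control 1 it was -0.40 and without Prmt5 KO 1 and 4 it was -0.27. Exons of Klc3 and Gm26852 on the opposite strand cover 20.8% and 18.1% of the counted Ercc2 transcript. Those of Acp2 cover 27.9% of that of Ddb2. Smaller overlaps on the opposite strand were with Cd3eap (7.7% of Ercc1), Tkfc (7.4% of Ddb1) and Ncbp1 (6.2% of Xpa). Mir343, on the same strand, covers 0.3% of Ercc2. Mean levels of Ncbp1, 239 CPM in Prmt5 KO and 240 CPM in Control, were far above those of Xpa. Acp2 was at 35.7 ± 28.3 CPM in Prmt5 KO and 21.3 ± 12.1 CPM in Control (SD, n = 4 each). The means of Ddb2 were 30.1 CPM in Prmt5 KO and 27.8 CPM in Control. The log2 fold change of Acp2 was 0.76 with a standard error of 0.59. All these counts are uncertain, as whether strand was used in the counting is not stated.

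Xpa, the scaffold at the lesion, was set apart by a single library. Xpa (ENSMUSG00000028329, chromosome 4, 46155347 to 46196311, minus strand) had 6.59, 10.9, 9.08 and 34.9 CPM in Prmt5 KO 1 to 4 and 5.58, 11.6, 10.4 and 8.27 CPM in Control 1 to 4. Prmt5 KO 4 alone lay outside the range of the others, and the log2 fold change of 0.78 (standard error 0.63) was -0.01 without it. The make-up of the Xpa counts also differed by library. Xpa-201, which shares the first 5 exons of the counted Xpa-202 and differs in its last, had 10.3% to 80.7% of the counts of Xpa-202 in Prmt5 KO libraries, the highest in Prmt5 KO 4, and 6.1% to 69.2% in Control libraries, the highest in Control 2. On the CPM scale Xpa-201 was at 0.68, 4.07, 4.46 and 28.2 in Prmt5 KO 1 to 4 and at 0.34, 8.04, 4.39 and 1.06 in Control 1 to 4. With the transcripts of each gene added together, the log2 fold change of Xpa was 1.22.

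The genes of the 5′ nuclease did not follow Ercc5. Ercc4 (ENSMUSG00000022545, chromosome 16, 13109684 to 13150617, plus strand), its catalytic subunit XPF, was at 25.3, 23.8, 19.8 and 5.73 CPM in Prmt5 KO 1 to 4 and at 13.9, 21.9, 25.2 and 16.9 CPM in Control 1 to 4. Prmt5 KO 4 was below all Control libraries and the other 3 within their range or level with its top, with a log2 fold change of -0.05 and a standard error of 0.50. The counted Ercc4 transcript is annotated as a target of nonsense-mediated decay; with the coding transcript Ercc4-201 the log2 fold change was 0.07. Ercc1 (ENSMUSG00000003549, chromosome 7, 19344778 to 19356524, plus strand), the partner of ERCC4, was at 47.8, 23.8, 37.8 and 33.9 CPM in Prmt5 KO 1 to 4 and at 35.8, 31.7, 39.0 and 56.8 CPM in Control 1 to 4. The groups overlapped, and the log2 fold change was -0.19 (standard error 0.33). The level per length of Ercc5 over that of Ercc4, the nucleases of the opposite sides, was 4.02, 5.39, 6.19 and 32.4 in Prmt5 KO 1 to 4 and 0.67, 2.55, 1.06 and 2.23 in Control 1 to 4. The groups did not overlap in this ratio, and its largest value, in Prmt5 KO 4, came with 23 counts of Ercc4. Ercc5 by itself already separates the groups, so the ratio restates the Ercc5 difference and is no separate result.

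All 10 genes passed the filter on low counts. In the edgeR fit 0 of the 10 had an adjusted p under 0.05, where 0.0273% of the genes tested did (3 of 10990), 0.0182% higher and 0.0091% lower in Prmt5 KO. At an unadjusted p under 0.05 the count was 1 of 10, Ercc5, where 8.15% of the genes tested were, 4.47% as higher in Prmt5 KO. DESeq2 put 1 of the 10, again Ercc5, under an adjusted p of 0.05, where it called 1.02% of the genes to which it gave an adjusted p (107 of 10482). With no filter on low counts edgeR also called Ercc5 alone of the 10, where 0.0326% of genes were called (7 of 21444). The CPM of the groups did not overlap for 2 of the 10, Ercc5 and Ddb1, where this held for 4.9% of the genes tested, 2.63% as higher in Prmt5 KO; both of the 2 were higher. As the list was put together with this contrast known, nothing is read from these counts. Of the 10, 5 had a log2 fold change above 0, and the median was 0.04, against 0.03 over all genes tested. Over the 9 other than Ercc5 the median was -0.05, and the values ran from -0.99 for Ercc2 to 0.78 for Xpa. The median of the 10 was -0.27 without Prmt5 KO 1 and 4, and 0.25 without Control 2 and 3, so its sign changed with the libraries used.

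**Figure D3:**
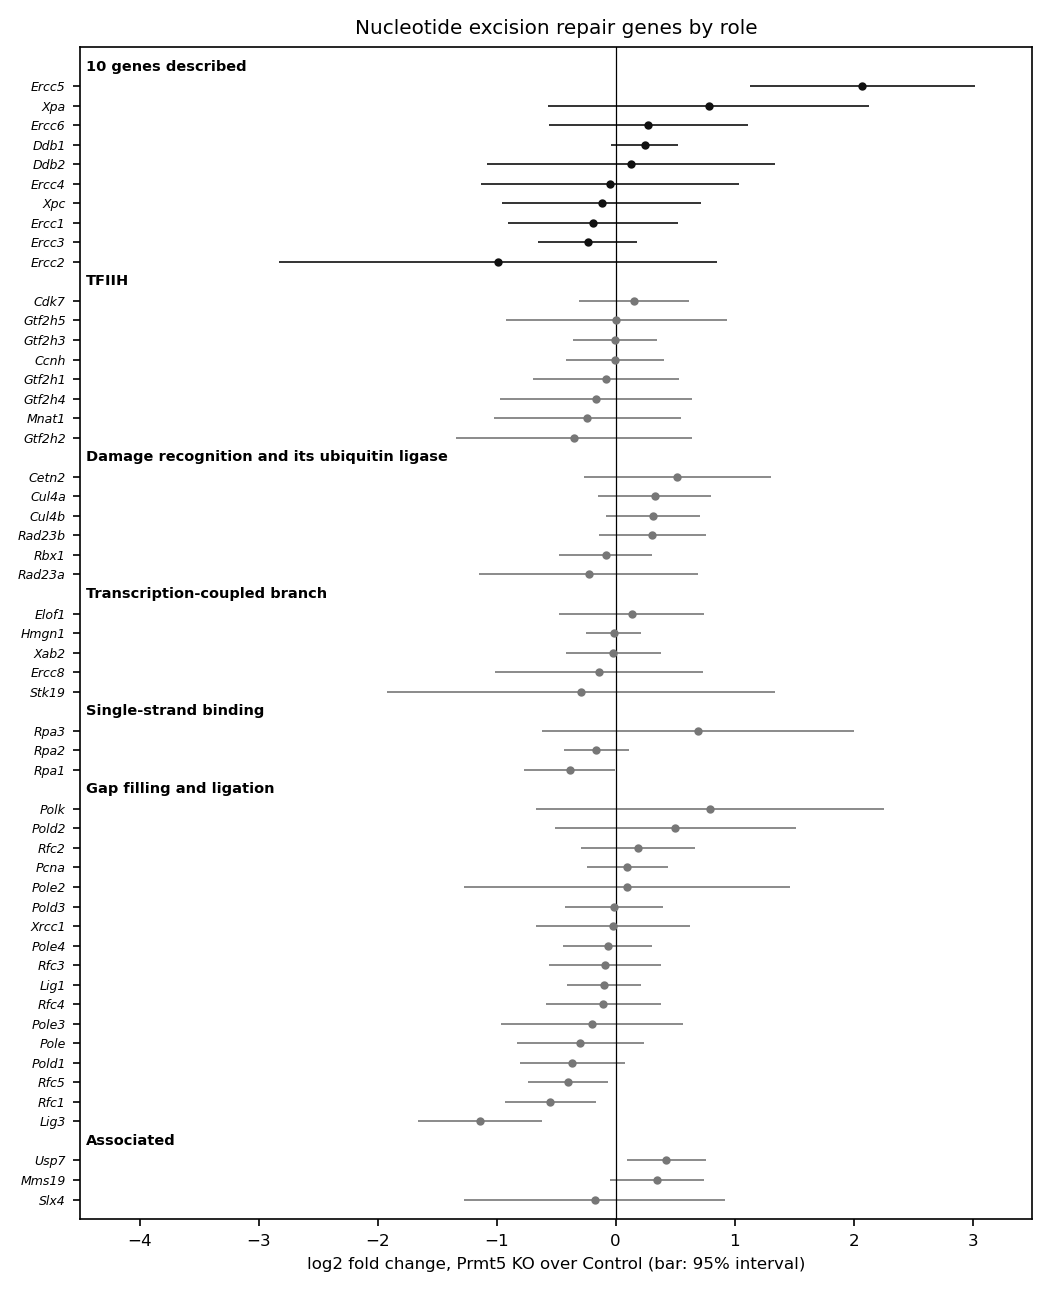
Log2 fold change of Prmt5 KO over Control (horizontal axis) with its 95% interval for the 10 genes (black) and for 42 other genes of nucleotide excision repair by role (grey), from the fit over all genes. Ercc5 lies at 2.07 and the other 9 of the 10 between -0.99 and 0.78; Lig3 is the lowest of the other genes at -1.14.

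Levels of different genes were compared per kb of the counted transcript, with no correction for coverage along transcripts. In Prmt5 KO, Ercc5 was the 3rd of the 10 at 26.2 ± 7.02 CPM per kb (SD, n = 4), after Ddb1 at 93.3 ± 11.1 and Ercc3 at 36.0 ± 4.24 and just above Ercc1 at 26.1 ± 7.21. In Control, Ercc5 was the 7th at 6.30 ± 3.79 CPM per kb (SD, n = 4), after Ddb1 at 78.7 ± 2.95, Ercc3 at 42.3 ± 4.72, Ercc1 at 29.7 ± 8.05, Xpc at 16.8 ± 5.98, Ddb2 at 12.5 ± 7.83 and Xpa at 7.23 ± 2.14, and above Ercc6, Ercc4 and Ercc2. The other 9 genes stood in the same order in both groups. In each group Ddb1 was above Ercc3 in every library, and the libraries of every other pair of neighbours in the order overlapped. Ercc5 made up 8.1%, 12.6%, 11.5% and 13.0% of the summed level per length of the 10 genes in Prmt5 KO 1 to 4, and 0.95%, 5.7%, 2.5% and 3.3% in Control 1 to 4. The summed level of the other 9 was 206 ± 32.5 CPM per kb in Prmt5 KO and 197 ± 14.7 in Control (SD, n = 4 each), a difference smaller than the spread within either group.

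**Figure D4:**
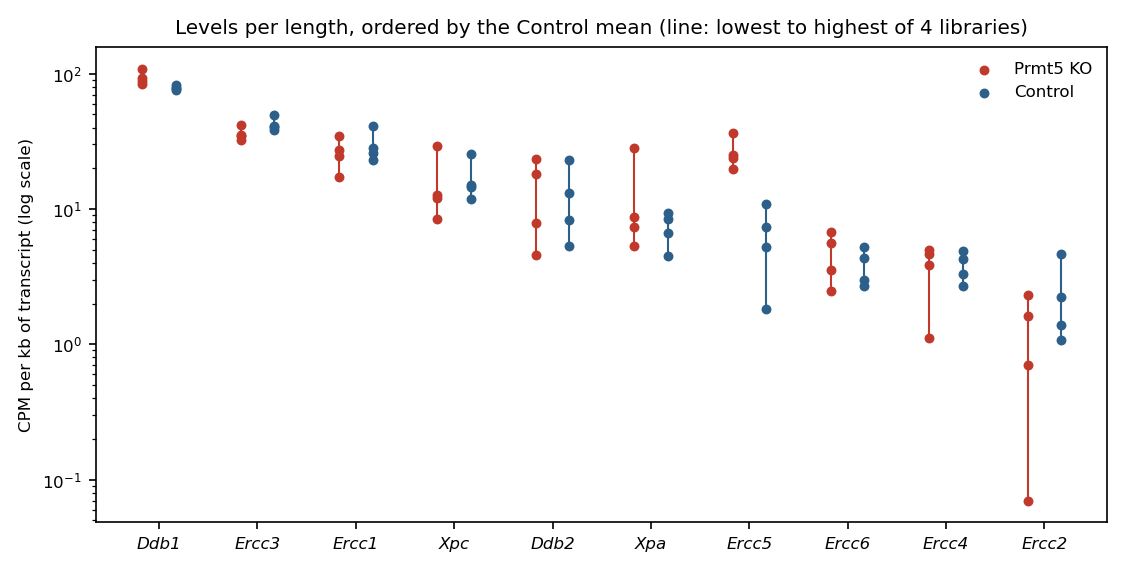
Level in CPM per kb of the counted transcript (vertical axis, log scale) of the 10 genes, ordered by the Control mean; points are the 4 Prmt5 KO (red, left) and 4 Control (blue, right) libraries, and lines join the lowest and highest. Ercc5 is the 3rd in Prmt5 KO, at 26.2 CPM per kb, and the 7th in Control, at 6.30 CPM per kb.

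The 10 genes varied most in Prmt5 KO 4. The root mean square deviation of their log2 CPM from the mean of the group was 1.07 in that library. It was 0.53 to 0.60 in Prmt5 KO 1 to 3 and 0.43 to 0.66 in the Control libraries. The widest deviations in Prmt5 KO 4 were -2.26 for Ercc2, from 1 count, and 1.47 for Xpa, and they weigh heavily in its value. Prmt5 KO 4 held the highest value of its group for 5 of the 10 genes and the lowest for 3. The Ercc5 value of Prmt5 KO 4 was high in the same library as those of Xpa, Ddb1, Ddb2 and Ercc3, while Ercc2, Ercc4 and Xpc were lowest there.

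Other genes of the pathway were read from a list of 44, grouped by role, of which 42 were tested. In edgeR 0 passed an adjusted p of 0.05 in either direction and 42 did not pass, where 0.0273% of all genes tested were called. At an unadjusted p under 0.05 there were 5 of the 42, where 8.15% of all genes tested were, and DESeq2 called 1, Lig3, where it called 1.02% of all genes. Of the 42, 15 had a log2 fold change above 0 and 27 below, with a median of -0.04. The CPM of the groups did not overlap for 5 of the 42 (11.9%, against 4.9% of all genes tested), with Rfc1, Rfc5 and Lig3 lower and Usp7 and Mms19 higher in Prmt5 KO. This list was also written with earlier results of these data known, so nothing is read from these counts.

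Among the 8 other subunits of TFIIH the log2 fold changes ran from -0.35 for Gtf2h2, a core subunit, to 0.15 for Cdk7, its kinase, with a median of -0.05. Among 6 genes of damage recognition and its ubiquitin ligase the median was 0.31, with Cul4b, a scaffold of the ligase that DDB1 and DDB2 join, at 0.31 (342 ± 90.8 CPM in Prmt5 KO and 275 ± 34.1 CPM in Control, SD, n = 4 each) and its relative Cul4a at 0.33. Of 5 tested genes of the transcription-coupled branch, Elof1, an elongation factor, was at 0.14 and Stk19 at -0.29, and Uvssa did not pass the filter. For single-strand binding, Rpa1, the large subunit of replication protein A, was at 313 ± 69.3 CPM in Prmt5 KO and 409 ± 49.9 CPM in Control (SD, n = 4 each; log2 fold change -0.39, edgeR adjusted p = 0.599), and Rpa2 was at -0.16. Rpa3, the remaining gene of this role, named here after its values were seen, went the other way. Its log2 fold change was 0.69 with a standard error of 0.61, and its groups overlapped.

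Gap filling and ligation held the widest differences outside the 10 genes. Lig3, which encodes a DNA ligase that seals the repaired strand, was at 46.9, 68.8, 56.7 and 40.1 CPM in Prmt5 KO 1 to 4 and at 137, 101, 128 and 102 CPM in Control 1 to 4. All Prmt5 KO libraries were below all Control libraries (log2 fold change -1.14 ± 0.24, SE; edgeR adjusted p = 0.202). Rfc1, the large subunit of the clamp loader, was at 139, 184, 189 and 160 CPM in Prmt5 KO 1 to 4 and at 312, 210, 237 and 222 CPM in Control 1 to 4, again without overlap (log2 fold change -0.55, edgeR adjusted p = 0.429). Rfc5, of the same complex, was at -0.40. Polk and Pcna, named here after their values were seen, were at 0.79 and 0.10, and Pold4 did not pass the filter. Polk was at 17.9, 3.29, 11.5 and 45.9 CPM in Prmt5 KO 1 to 4 and at 7.44 to 15.7 CPM in Control. Its groups overlapped, with the lowest library Prmt5 KO 2 and the highest Prmt5 KO 4, and the standard error was 0.68. Of the 3 associated genes, Usp7, a deubiquitinase, was at 229 ± 19.2 CPM in Prmt5 KO and 171 ± 17.2 CPM in Control (SD, n = 4 each; log2 fold change 0.43, edgeR adjusted p = 0.491), and Mms19, a factor of iron-sulphur cluster delivery, was at 0.35 (edgeR adjusted p = 0.671). Exons on the opposite strand cover part of Lig3 (30.7%, Rffl), Rfc5 (17.8%, Wsb2) and Mms19 (12.2%, Zdhhc16), so these values are uncertain.

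Bivm, which lies 2973 bases upstream of Ercc5 on the same strand and was picked for that position, was also read, as human BIVM and ERCC5 are known to give a read-through transcript. Bivm was at 47.1, 8.72, 22.2 and 57.1 CPM in Prmt5 KO 1 to 4 and at 10.99, 6.70, 9.87 and 16.9 CPM in Control 1 to 4. It was above every Control library in 3 of the 4 Prmt5 KO libraries but not in Prmt5 KO 2, where Ercc5 was at 97.9 CPM (log2 fold change 1.58 ± 0.56, SE; edgeR adjusted p = 0.481). Bivm was highest in Prmt5 KO 1 and 4, the libraries that stand apart. No annotated exon of another gene overlaps the counted Ercc5 transcript.

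The genes most like Ercc5 over the 8 libraries were taken by the smallest root mean square difference of mean-centred log2 CPM, among 6533 genes with a mean of at least 20 CPM. They were Zfp654 (difference 0.41), Asf1a (0.49), Ttc23 (0.57), Trh (0.65) and Klhl26 (0.65). Asf1a, a histone chaperone, was at 29.9, 26.9, 38.4 and 36.6 CPM in Prmt5 KO 1 to 4 and at 3.89, 12.9, 12.1 and 5.98 CPM in Control 1 to 4, with no overlap between the groups; exons of Mcm9 on the opposite strand cover 68.8% of its counted transcript. All 5 had their lowest value in Control 1, as Ercc5 did, and 4 of the 5 their highest in Prmt5 KO 4. The 5 were picked for their likeness to Ercc5 over these same libraries. Their shared features, with the separation of the groups for Asf1a, follow from that choice and are no separate result. Of the 9 other genes of the list, Xpa was nearest to Ercc5, at a difference of 1.07, and Ercc2 farthest, at 2.36.

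**Figure D5:**
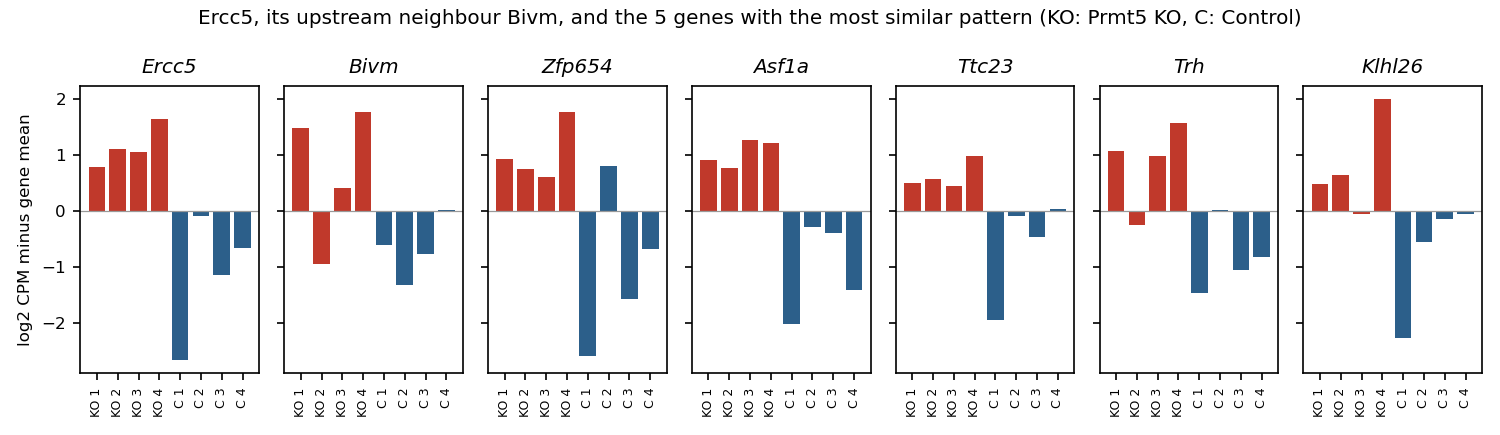
Log2 CPM minus the mean of the gene over all libraries (vertical axis, shared) in Prmt5 KO 1 to 4 (red) and Control 1 to 4 (blue) for Ercc5, its upstream neighbour Bivm and the 5 genes with the most similar pattern. Ercc5 is above its mean in all Prmt5 KO libraries and below it in all Control libraries, lowest in Control 1; Bivm is below its mean in Prmt5 KO 2.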

How the data were processed

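Sorted primordial germ cells of 4 Prmt5 KO and 4 Control samples were sequenced on the SOLiD platform, per the series' design text. The authors deposited whole-number read counts per Ensembl transcript and library, listing only transcripts with at least 1 count; the build is GRCm38 (mm10), per the submitters' processing notes; aligner, counter, annotation release and use of strand are unstated. Of 66262 transcript identifiers, 64258 matched GENCODE M21. Transcripts of a gene share reads, so each gene was represented by 1 transcript, that with most counts summed across libraries. The design was written for gene counts and kept.

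Genes were filtered with filterByExpr (minimum count 10, minimum total 15), scaled by TMM and fitted in edgeR 4.0.16 (R 4.3.3, limma 3.58.1) with the robust quasi-likelihood test; p-values were adjusted over all 10990 genes by Benjamini-Hochberg at 0.05. DESeq2 1.42.0 was an alternative. Standard errors are the log2 fold change divided by the square root of F. On simulated counts for this comparison (10792 genes, the changed ones above 10 CPM), edgeR recovered 26% of 2-fold changes and 69% of 4-fold changes. It called 6 of the 10592 genes left unchanged. The simulation held 100 genes with each change, whereas the measured comparison called 3 of 10990 genes. With few genes called the adjusted threshold is stricter, so these shares may overstate recovery in the measured data. Figures were drawn with matplotlib 3.10.9. No libraries of a group were duplicates: each pair differed by at least 7.66 chi-square per degree of freedom. Promoter sequences are from RefSeq (GRCm38.p6); 7 of the 10 genes matched.

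The 10 genes and all lists were chosen with earlier results of these data known. Genes named were Prmt5, the 10 genes, per role group the called genes, or where there were none the 2 lowest in unadjusted p, the 5 genes most like Ercc5 in pattern, genes whose exons overlap one of the 10, and the most abundant marker of each cell type; others are said to be chosen otherwise. Alternatives covered scaling, tool, filter, robust estimation, the gene value, the replicate block and libraries left out.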

Additional observations from a re-analysis of the deposited data

Results flagged for a closer look

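Within each group of 4 libraries, 58 sets of CPM values were examined for a value that lies apart. They cover only part of the genes named in this report. There was 1 such value in these sets, where chance gives about 1 in 20 sets, or 2.9. Xpa was at 34.9 CPM in Prmt5 KO 4, while the other Prmt5 KO libraries lay between 6.59 and 10.9 CPM. No library was singled out for Ercc5 in either group. Among genes outside the sets, Acta2 was at 208 CPM in Prmt5 KO 1 against 2.71 to 5.95 CPM in the other Prmt5 KO libraries. Rfc5 was at 331 CPM in Control 2 against 242 to 254 CPM in the other Control libraries.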

How the results depend on the processing

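The fold change of Ercc5 was above 0 in all 17 alternatives, between 1.75 and 2.53 on the log2 scale. Its groups did not overlap, so leaving out libraries could hardly have turned the sign. The other alternatives refit the same libraries, so the sign is no separate support. In each alternative the value moved by less than the spread between libraries. Of 170 fold changes of the 10 genes under the alternatives, 167 moved by less than that spread, and 3 by more: Xpa without Prmt5 KO 4 (-0.01), and Ddb2 (-0.97) and Ercc6 (-0.32) without Prmt5 KO 1 and 4. Leaving out single libraries gave 1 to 2 genes called in all (3 with every library), Ercc5 at 1.75 to 2.47, and a median of the 10 genes of -0.11 to 0.17; 0 other genes of the pathway were called in any of these fits. The number of genes called was 107 in DESeq2, 7 with no filter, 1 with transcripts summed, 1 with the replicate block, 1 without Prmt5 KO 1 and 4, and 0 without Control 2 and 3; the cause was not tested. DESeq2 called 1 other pathway gene, Lig3. The median of the 10 genes was -0.27 without Prmt5 KO 1 and 4, and without Control 2 and 3 it was 0.25. Replicate numbers were not taken as pairs, because no label says that they pair samples. Libraries with the same replicate number had correlations of 0.0023 to 0.069 between their deviations from the group means. Libraries with different numbers were not compared, so these values cannot decide whether samples were paired. With the replicate block the log2 fold change of Ercc5 was 2.27. The coding transcript as gene value was added after seeing the data; it gave 2.07 for Ercc5 and 0.10 for the median. Ercc2 had 1 to 99 counts in a library, so its values rest on few reads.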
